A study of Mus musculus with 17 samples.

Results

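The contractile and smooth muscle genes described here are 9 genes of the actin-myosin machinery, namely Acta2 and Actg2 (smooth muscle actins), Tagln and Tagln2 (transgelins, which bind actin), Cnn1 (calponin, an actin-binding inhibitor of the myosin ATPase), Myh11 and Myl9 (heavy and regulatory light chain of smooth muscle myosin), and Tpm1 and Tpm2 (tropomyosins, which lie along the actin filament). The members are all probes that the deposited table of log2 ratios assigns to 1 of these symbols, which are 18 of 41174 probes on the array. Of these, 16 were tested, among 34664 probes tested in all for 19358 genes. Acta2 had 5 probes (4 tested), Tpm1 had 4 (3 tested), Tagln and Tpm2 had 2 each, and the other 5 genes had 1 each. Probes of 1 gene are numbered by the brightness of the liver signal, with probe 1 as the brightest.

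The livers came from 17 male mice, labeled C57BL/6N by the sample labels and C57BL/6J by the methods, and no genetic modification is given. They fall into 4 chow mice (chow diet and a maltose gavage), 4 1B mice (chow diet and 1 gavage of ethanol at 5 g/kg), 4 HFD mice (high-fat diet and a maltose gavage), and 5 HFD+1B mice (high-fat diet and the ethanol gavage). Each diet lasted 3 months, the maltose served as the isocaloric control of the ethanol, and the mice were killed 9 hours past the gavage. Each array held the liver of 1 mouse in Cy5 and a reference RNA in Cy3, without a dye swap, and each value below is the log2 ratio of liver to reference, in which 1 unit is a doubling. The labels name the reference as an assorted mouse total RNA and also give its tissue as liver, so its makeup is not settled here.

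Smooth muscle contracts when its actin filaments are pulled by myosin, and tropomyosin, calponin, and transgelin regulate or stabilize the filaments. Many of these genes are driven by serum response factor (SRF), which binds the CArG box together with myocardin or related cofactors. In liver the contractile genes mark the walls of arteries and portal veins and hepatic stellate cells that have become myofibroblasts, for which Acta2 is the usual marker, whereas Actb, Actg1, Myh9, and Tpm4 encode the non-muscle relatives found in most cells. In RNA from whole liver, a change in the number of such cells and a change of RNA per cell cannot be told apart.

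The array reads these near-identical families through 60-base probes, and the sequences of 4 probes are shown because the results turn on whether a probe reads its own gene. The first pair are the bright Acta2 probe that moved and Tagln probe 2, each in lower case.
Acta2 probe 1 (A_51_P450957): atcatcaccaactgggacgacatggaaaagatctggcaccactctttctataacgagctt
Tagln probe 2 (A_52_P517683): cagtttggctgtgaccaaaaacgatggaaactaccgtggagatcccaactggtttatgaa
The other pair are the bright probes of the 2 tropomyosins, which overlap in sequence, and capitals mark the bases identical in both.
Tpm1 probe 1 (A_52_P532910): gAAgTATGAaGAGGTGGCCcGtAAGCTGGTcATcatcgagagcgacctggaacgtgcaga
Tpm2 probe 1 (A_52_P418477): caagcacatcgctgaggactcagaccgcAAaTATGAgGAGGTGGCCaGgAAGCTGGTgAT
In the best ungapped alignment with an overlap of at least 30 bases, the tropomyosin pair matched at 27 of 33 bases (81.8%). For comparison, Acta2 probe 1 matched the most similar probe of any other entry on the array at 36 of 59 bases. The transcripts of Actb and Actg1 were not compared with the Acta2 probes here, and the part of cross-hybridization was not tested. Acta2 probes 1 and 2 had no stop codon in 2 of the 3 reading frames of the strand given, and Acta2 probes 3, 4, and 5 had 1 or more in every frame.

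Cy5 was well above background for 73.9% to 86.0% of probes per array. The median net Cy5 signal was 43 to 78 intensity units on the HFD arrays and 49 to 138.5 on the others, so the HFD arrays were on the dim side, and the part of this in the HFD results was not tested. The arrays lay on 5 slides, each with several groups, and were scanned on 1 day. The hepatocyte markers Alb, Ttr, Apoa1, Hnf4a, and Tat were well above background on all 17 arrays. All 9 members had a probe well above background on all 17 arrays, with a mean Cy5 intensity from 188 units for Cnn1 to 6372 for Tagln probe 1. Acta2 probe 5 and Tpm1 probe 4 were well above background on 0 of 17 arrays and were not tested.

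In the HFD+1B livers Acta2, Tagln, Actg2, and Myh11 were called higher than in both chow and HFD. Of their probes only Acta2 probe 1 and Tagln probe 2 were also called higher than in 1B. A probe was called where the limma adjusted p was at most 0.05. Against chow, 7 of 16 member probes were higher, next to 14.8% of all tested probes called (7.79% higher and 6.98% lower). Against HFD, 7 of 16 were higher, next to 17.9% of all tested probes (9.92% higher and 8.01% lower). Against 1B, 6 of 16 were higher, next to 10% of all tested probes (5.31% higher and 4.71% lower). In each of these 3 comparisons 0 members were called lower, and 0 were lower at an unadjusted p under 0.05. The median difference over the 16 probes was 0.48 against chow, 0.41 against HFD, and 0.38 against 1B, where the medians over all tested probes were -0.00, 0.01, and -0.01. These comparisons share the HFD+1B mice, so they are not separate evidence. The HFD+1B mice did not overlap the other group on 6 of 16 member probes against chow (14.5% of all tested probes), 8 against HFD (14.4%), and 5 against 1B (10.4%).

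Each treatment alone gave fewer member calls. In 1B against chow, 1 of 16 member probes was higher (Acta2 probe 1), next to 3.62% of all tested probes (1.84% higher and 1.78% lower). In HFD against chow, 3 were higher (Tagln probe 2, Tpm1 probe 2, and Tpm2 probe 2) and 1 was lower (Tagln2), next to 9.97% of all tested probes (3.88% higher and 6.1% lower). The groups did not overlap on 2 member probes in 1B against chow (11.1% of all tested probes) and on 5 in HFD against chow (18.3%). The interaction is the ethanol difference in the ratio on HFD minus that on chow diet. It was called higher for 2 of 16 probes (Tagln2 and Myl9), next to 4.11% of all tested probes (2.5% higher and 1.6% lower). In Cy5, the liver, it was -0.31 for Tagln2 and 0.77 for Myl9, neither of them called (limma, adjusted p = 0.888 and 0.0911). Each of the 2 calls in the ratio was lost without any 1 of 11 mice.

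When the liver channel was read alone, without the reference, 5 member calls were left, all higher with HFD+1B. They were Tagln probe 2 and Tpm1 probe 1 against chow (5.89% of all tested probes called), Acta2 probe 1 and Myl9 against HFD (5.13%), and Myl9 against 1B (2.79%). In HFD against chow 0 member probes were called in the liver channel by limma (3.52% of all tested probes), with 3 at an unadjusted p under 0.05. In 1B against chow 0 were called (0.883%), with 1 at an unadjusted p under 0.05, and for the interaction 0 were called (0.6%), with 2 at an unadjusted p under 0.05. The other calls of member probes below were lost in the liver channel alone.

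**Figure D1:**
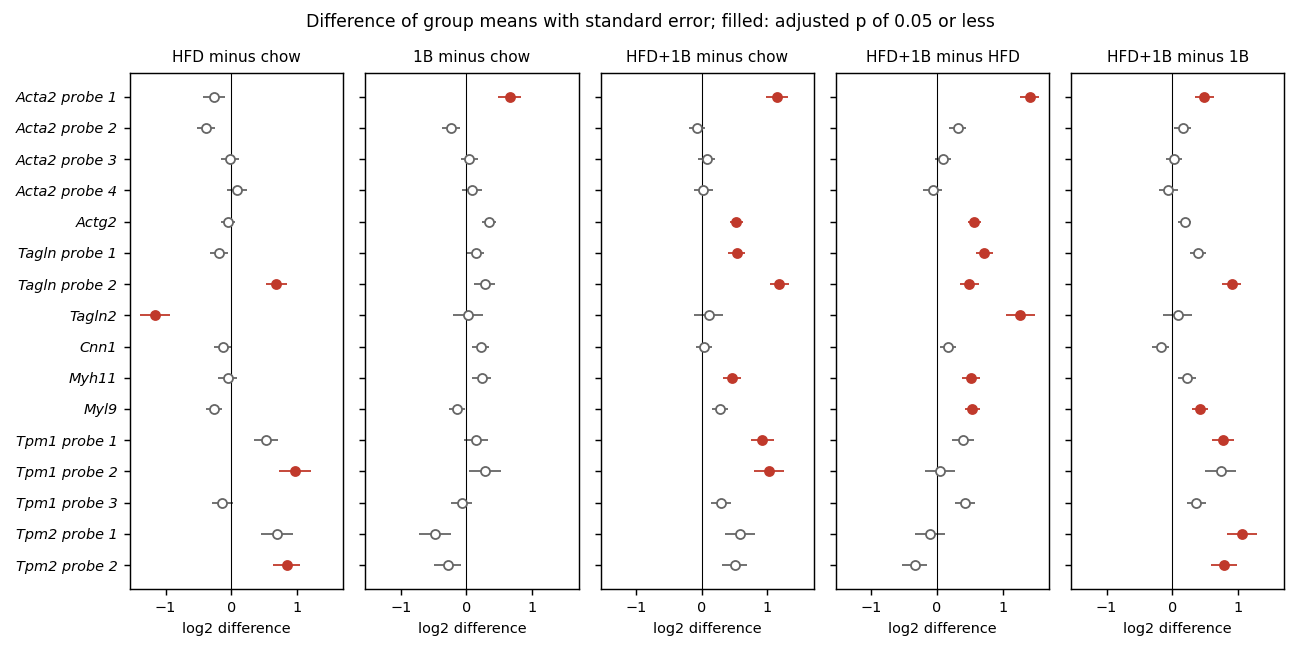
Differences of group means in the log2 ratio (horizontal axes, 1 panel per comparison) for the 16 tested member probes, with bars for 1 standard error. Filled points passed the limma threshold. In the 3 panels of HFD+1B the filled points lie to the right of 0, and in the panel of HFD minus chow Tagln2 lies at -1.16 while Tpm1 probes 1 and 2 and both Tpm2 probes lie to the right.

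Acta2, the actin of vascular smooth muscle, gave the largest difference of any member probe between HFD+1B and HFD. On Acta2 probe 1 the log2 ratio was -0.17, -0.48, and -0.44 in chow mice 2 to 4, 0.67, 0.13, 0.12, and 0.26 in the 1B mice, -0.34, -0.56, -0.64, and -0.97 in the HFD mice, and 0.99, 0.85, 0.45, 0.97, and 0.67 in the HFD+1B mice. All HFD+1B mice were above all chow and HFD mice, while the highest 1B mouse lay within the HFD+1B range. The spot of chow mouse 1 was marked as an outlier by the scanner software and the fit dropped it, and kept it reads -0.69, below the other chow mice. HFD+1B was 1.41 ± 0.15 (SE) above HFD, a 2.66-fold difference (limma, adjusted p = 2.82e-05), and 1.15 ± 0.16 above chow, a 2.22-fold difference (adjusted p = 0.000126). Within the 4 slides that held both groups, HFD+1B was above HFD by 1.08 to 1.94.

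Ethanol also came with a higher Acta2 probe 1 on chow diet. 1B was 0.66 ± 0.17 above chow (limma, adjusted p = 0.0384), and HFD+1B was 0.49 ± 0.15 above 1B (adjusted p = 0.046). The interaction was 0.76 ± 0.23, which was not called (adjusted p = 0.0684) and was called with slide as a block (0.91, adjusted p = 0.0279). The 1B call was lost with slide as a block (0.53, adjusted p = 0.108) and when any 1 of chow mice 3 and 4, 1B mice 1, 2, and 4, or HFD mouse 2 was left out. Its p over all settings ran from 0.0122 to 0.716, adjusted over probes in all but the post hoc comparison described under the processing. The call of HFD+1B over 1B was lost without any 1 of chow mice 3 and 4, 1B mice 2 to 4, HFD mice 2 and 3, or HFD+1B mice 1, 2, 4, and 5 (0.43 to 0.52, adjusted p up to 0.139), and in the liver channel alone (0.16, adjusted p = 0.894), whereas the rise over HFD was called in the liver channel alone as well (1.12, adjusted p = 0.0391).

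The other Acta2 probes were called in 0 comparisons by limma. On Acta2 probe 2 the log2 ratio was 0.43, -0.15, 0.24, and 0.15 in the chow mice, -0.10, 0.05, 0.01, and -0.23 in the 1B mice, -0.26, 0.11, -0.41, and -0.32 in the HFD mice, and 0.22, -0.06, -0.07, 0.35, and 0.03 in the HFD+1B mice. On Acta2 probe 3 it was 0.07, 0.07, -0.05, and 0.21 in the chow mice, 0.30, 0.45, -0.04, and -0.23 in the 1B mice, 0.19, 0.23, -0.17, and -0.01 in the HFD mice, and 0.23, 0.24, 0.23, 0.07, and -0.02 in the HFD+1B mice. In both probes the HFD+1B mice overlapped every other group. Probe 2 differed by 0.32 ± 0.13 between HFD+1B and HFD (unadjusted p = 0.024, adjusted p = 0.0968) and by 0.55 ± 0.19 in the interaction (unadjusted p = 0.00871, adjusted p = 0.103), and both were called with median centering and without HFD mouse 2 (0.43, adjusted p = 0.0307, and 0.66, adjusted p = 0.0422). On Acta2 probe 4 it was 0.22, 0.13, 0.12, and 0.03 in the chow mice, 0.83, -0.01, -0.07, and 0.09 in the 1B mice, 0.45, 0.17, 0.14, and 0.07 in the HFD mice, and 0.02, 0.30, 0.12, 0.03, and 0.25 in the HFD+1B mice. Probe 4 was well above background on 10 of 17 arrays and on 0 of 4 chow arrays, so its chow values are only bounds.

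The disagreement among the Acta2 probes was larger than the spread between mice. The difference of each probe from probe 1 was taken within each array and tested with limma over 11307 such probes of all genes. From chow to HFD+1B, probe 2 fell behind probe 1 by -1.13 ± 0.20 (adjusted p = 0.00196), and probe 3 by -1.07 ± 0.19 (adjusted p = 0.00219). From HFD to HFD+1B, probe 2 fell behind by -1.10 ± 0.18 (adjusted p = 0.00101), probe 3 by -1.32 ± 0.18 (adjusted p = 0.00023), and probe 4 by -1.48 ± 0.15 (adjusted p = 4.71e-05), where 14.2% of all such probes were called. Probe 4 itself differed by -0.06 ± 0.15 between HFD+1B and HFD, and was well above background on 3 of 4 HFD and 4 of 5 HFD+1B arrays. At such a dim signal a change of probe 4 would be compressed, so its differences mainly repeat the rise of probe 1. In the interaction probe 4 alone was called (2.18% of all such probes), but this rests on its chow values, which are only bounds, so no size is given, and the call was lost with slide as a block, with the authors' ratios, and without any 1 of 13 mice. In 1B against chow and in HFD+1B against 1B, 0 of the 7 further member probes of any gene were called by limma (0.442% and 2.61% of all such probes). From chow to 1B, Acta2 probe 2 fell behind by -0.81 and probe 3 by -0.615 (unadjusted p = 0.000982 and 0.0064). From 1B to HFD+1B, Acta2 probe 2 fell behind by -0.33, probe 3 by -0.46, and probe 4 by -0.55 (unadjusted p = 0.0867, 0.0174, and 0.00154). The further Acta2 probes were also far dimmer, with a mean Cy5 intensity of 3536 units for probe 1, 397 for probe 2, 185 for probe 3, and 70.5 for probe 4, and ratios near background are pulled toward that of the background. The part of dim signal in the disagreement was not tested. Over the 16 arrays with both values, the correlation with probe 1 was 0.43 for probe 2, 0.27 for probe 3, and 0.17 for probe 4, as a description across mice of 4 groups.

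**Figure D2:**
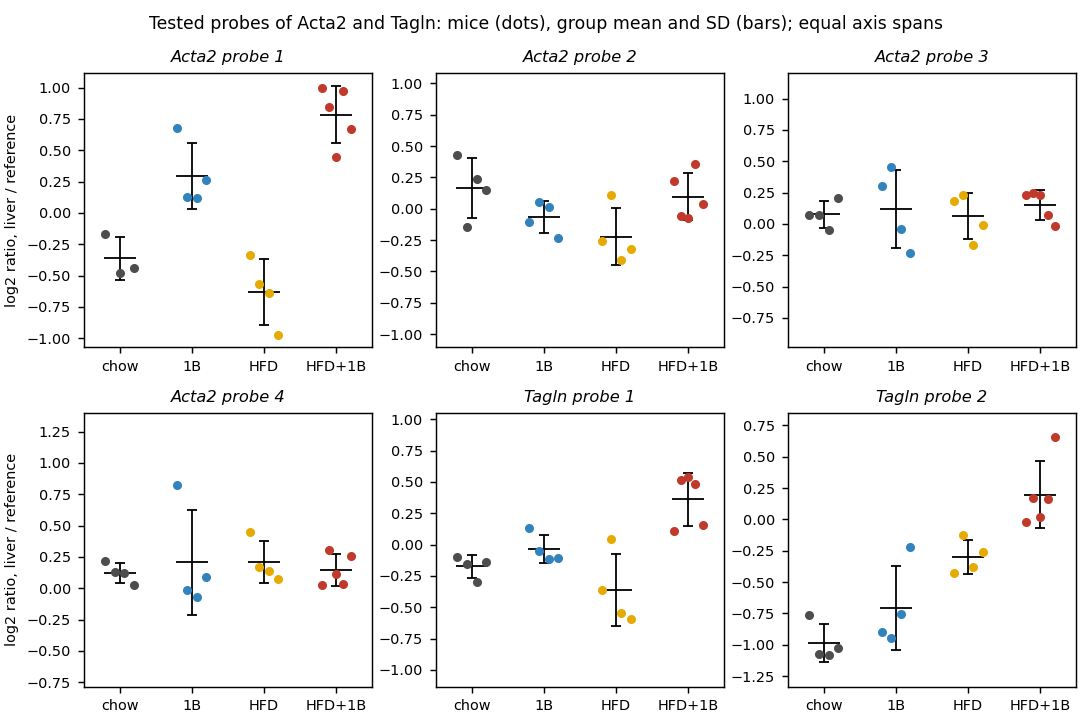
Log2 ratio of liver to reference (vertical axes of equal span) in each mouse (dots) for the 4 tested Acta2 probes and both Tagln probes, with the group mean and SD as bars. On Acta2 probe 1 the HFD+1B mice lie between 0.45 and 0.99, above the 3 chow mice measured and the HFD mice, and on Acta2 probes 2 to 4 the HFD+1B mice overlap the others.

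Actg2, the actin of enteric smooth muscle, rose with HFD+1B on its single probe. Its log2 ratio was -0.58, -0.43, -0.43, and -0.58 in the chow mice, -0.08, -0.28, -0.41, and 0.11 in the 1B mice, -0.45, -0.61, -0.72, and -0.42 in the HFD mice, and -0.04, 0.02, 0.09, 0.14, and -0.11 in the HFD+1B mice. All 5 HFD+1B mice were above all chow and HFD mice, and they overlapped the 1B mice. HFD+1B was 0.53 ± 0.10 above chow (limma, adjusted p = 0.00168) and 0.57 ± 0.10 above HFD (adjusted p = 0.00124). 1B was 0.34 ± 0.11 above chow, which was not called (adjusted p = 0.109).

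The cytoplasmic actins rose on the same arrays. The brightest probe of Actb rose with HFD+1B by 0.99 ± 0.17 over chow (limma, adjusted p = 0.000741) and by 0.83 ± 0.17 over HFD (adjusted p = 0.00356). Actg1 rose by 2.37 ± 0.26 over chow (adjusted p = 9.94e-06), by 1.40 ± 0.28 with HFD on chow (adjusted p = 0.00456), and by 1.18 ± 0.28 with 1B on chow (adjusted p = 0.0215). Acta2 probe 1 was not higher with HFD alone (-0.27 ± 0.17, adjusted p = 0.349), and the part of the cytoplasmic actins in the actin probes was not tested.

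Tagln, an early marker of smooth muscle and of myofibroblasts, rose with HFD+1B on both of its probes. On the bright probe 1 the log2 ratio was -0.10, -0.16, -0.30, and -0.14 in the chow mice, 0.13, -0.05, -0.11, and -0.10 in the 1B mice, -0.36, 0.04, -0.54, and -0.59 in the HFD mice, and 0.11, 0.52, 0.54, 0.48, and 0.15 in the HFD+1B mice. All HFD+1B mice were above the chow and HFD mice, by 0.53 ± 0.13 over chow (limma, adjusted p = 0.00724) and by 0.72 ± 0.13 over HFD (adjusted p = 0.00103). On the dim probe 2 it was -0.76, -1.08, -1.08, and -1.03 in the chow mice, -0.90, -0.95, -0.76, and -0.22 in the 1B mice, -0.43, -0.13, -0.38, and -0.26 in the HFD mice, and -0.02, 0.17, 0.02, 0.16, and 0.66 in the HFD+1B mice. On probe 2 the HFD+1B mice were above all mice of the other 3 groups, by 1.18 ± 0.15 over chow (adjusted p = 3.47e-05), 0.90 ± 0.15 over 1B (adjusted p = 0.000891), and 0.50 ± 0.15 over HFD (adjusted p = 0.0292). The last call was lost without any 1 of HFD mice 1, 3, and 4 or HFD+1B mice 4 and 5 (0.38 to 0.51, adjusted p up to 0.0746) and with the replicate number as a block.

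The Tagln probes parted on the diet. With HFD on chow, probe 2 was higher by 0.69 ± 0.16 (limma, adjusted p = 0.0108) and probe 1 was not (-0.19 ± 0.13, adjusted p = 0.404). The difference between the probes was 0.88 ± 0.21 (adjusted p = 0.0119), in a comparison in which 10.3% of all 11307 probes differed from the brightest probe of their gene. With median centering the probe 2 call was lost and probe 1 was called lower (limma, adjusted p = 0.0435), while the difference between the probes was still called. In the liver channel alone that difference was not called. Across the 17 mice the 2 probes had a correlation of 0.48, and of -0.06 once group means were removed, as a description. Probe 1 had a mean Cy5 intensity of 6372 units and probe 2 of 170.

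Tagln2, a transgelin that is not restricted to muscle, had a low ratio with HFD alone, which the liver channel alone did not show as a call. Its log2 ratio was 0.01, -0.11, 0.31, and 0.03 in the chow mice, -0.25, 0.41, 0.12, and 0.07 in the 1B mice, -1.42, -0.87, -1.27, and -0.84 in the HFD mice, and 0.24, 0.16, 0.23, 0.88, and -0.66 in the HFD+1B mice. All HFD mice were below all other mice. The ratio was lower with HFD than with chow by -1.16 ± 0.23 (limma, adjusted p = 0.0048), higher with HFD+1B than with HFD by 1.27 ± 0.22 (adjusted p = 0.000955), and the interaction was 1.24 ± 0.32 (adjusted p = 0.037). The interaction was lost without any 1 of chow mice 1, 3, and 4, 1B mice 1, 3, and 4, HFD mice 1 and 3, or HFD+1B mice 1 to 3 (1.13 to 1.26, adjusted p up to 0.082).

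The channels were read apart after these values were seen. HFD minus chow for Tagln2 was -0.05 ± 0.46 in Cy5, the liver, and 1.11 ± 0.34 in Cy3, the reference (unadjusted p = 0.00479, adjusted p = 0.447 by limma). HFD+1B minus HFD was 0.35 ± 0.43 in Cy5 and -0.92 ± 0.32 in Cy3. The Cy3 signal of the HFD mice lay between 10.15 and 10.80 on the log2 scale, that of the chow mice between 8.78 and 9.83, and that of the 1B mice between 9.01 and 10.67, while the labels name 1 reference RNA for all arrays. In Cy5 the HFD mice lay between 9.28 and 9.53, within the chow range of 8.81 to 9.84. The liver signal alone gave no call for Tagln2 in HFD minus chow (adjusted p = 0.977), with a standard error of 0.46. Over all 34664 tested probes, 2738 had an unadjusted p under 0.05 in Cy3 for HFD minus chow, and 446 for 1B minus chow.

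**Figure D3:**
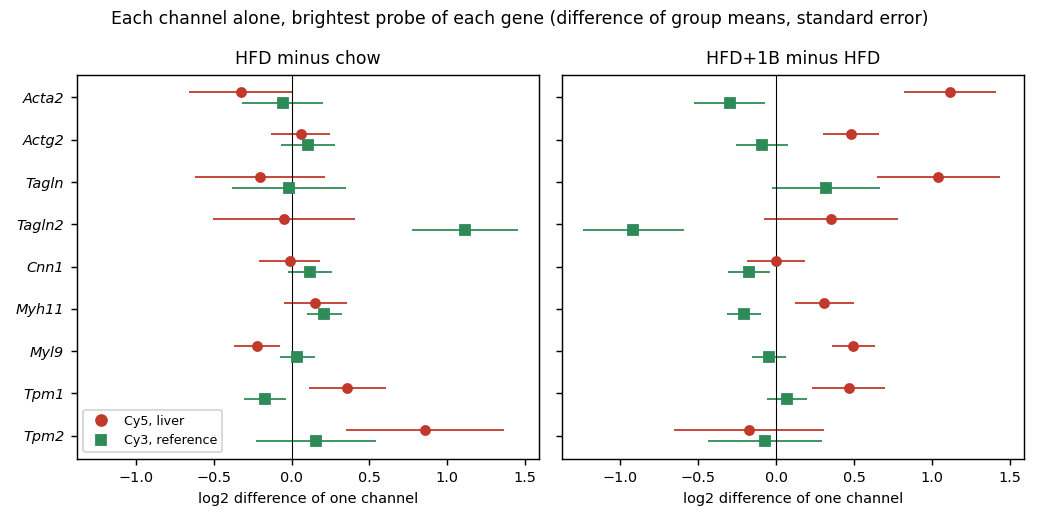
Log2 difference of each channel alone (horizontal axes) for the brightest probe of each gene, for HFD minus chow (left) and HFD+1B minus HFD (right), with bars for 1 standard error. For Tagln2 the reference channel (squares) lies at 1.11 on the left and -0.92 on the right while the liver channel (circles) lies at -0.05 and 0.35, and for Acta2 on the right the liver channel lies at 1.12.

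Cnn1, calponin of mature smooth muscle, was not called in any comparison. Its log2 ratio was -0.05, 0.10, 0.00, and -0.09 in the chow mice, 0.69, 0.01, 0.02, and 0.11 in the 1B mice, -0.02, 0.02, -0.24, and -0.32 in the HFD mice, and 0.20, -0.07, -0.00, 0.01, and 0.01 in the HFD+1B mice. The groups overlapped throughout, apart from 1B mouse 1, which lay above all other mice. HFD+1B minus chow was 0.04 ± 0.12 (limma, adjusted p = 0.89) and HFD+1B minus HFD was 0.17 ± 0.12 (adjusted p = 0.371).

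Both smooth muscle myosin chains were higher in HFD+1B than in HFD. The Myh11 ratio was -0.23, 0.08, -0.18, and -0.17 in the chow mice, 0.40, 0.18, -0.26, and 0.09 in the 1B mice, -0.26, -0.20, -0.11, and -0.15 in the HFD mice, and 0.71, -0.00, 0.41, 0.39, and 0.17 in the HFD+1B mice. All HFD+1B mice were above the HFD mice and 4 of 5 were above the chow mice. HFD+1B was 0.52 ± 0.14 above HFD (limma, adjusted p = 0.014) and 0.46 ± 0.14 above chow (adjusted p = 0.0285). The call against chow was lost without any 1 of chow mice 1, 3, and 4 or HFD+1B mice 1, 3, and 4 (0.36 to 0.45, adjusted p up to 0.0778), and with the authors' own ratios.

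The Myl9 ratio was -0.17, 0.06, -0.10, and -0.19 in the chow mice, -0.35, -0.30, -0.06, and -0.27 in the 1B mice, -0.33, -0.13, -0.39, and -0.59 in the HFD mice, and 0.01, 0.37, -0.03, 0.49, and 0.07 in the HFD+1B mice. The HFD+1B mice were above all HFD and 1B mice and overlapped the chow mice. HFD+1B was 0.54 ± 0.12 above HFD (limma, adjusted p = 0.00466) and 0.43 ± 0.12 above 1B (adjusted p = 0.0286), and both were called in the liver channel alone as well (0.49, adjusted p = 0.0487, and 0.55, adjusted p = 0.0418). The ethanol effect was higher on HFD than on chow by 0.69 ± 0.17 (adjusted p = 0.0341). In the liver channel alone this interaction was 0.77 and was not called (adjusted p = 0.0911). The interaction was lost without any 1 of the 4 chow mice, 1B mice 1, 2, and 4, HFD mice 3 and 4, or HFD+1B mice 2 and 4 (0.61 to 0.72, adjusted p up to 0.0767). The call against 1B was lost without any 1 of 1B mice 1, 2, and 4 or HFD+1B mice 2 and 4 (0.35 to 0.42, adjusted p up to 0.0859).

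**Figure D4:**
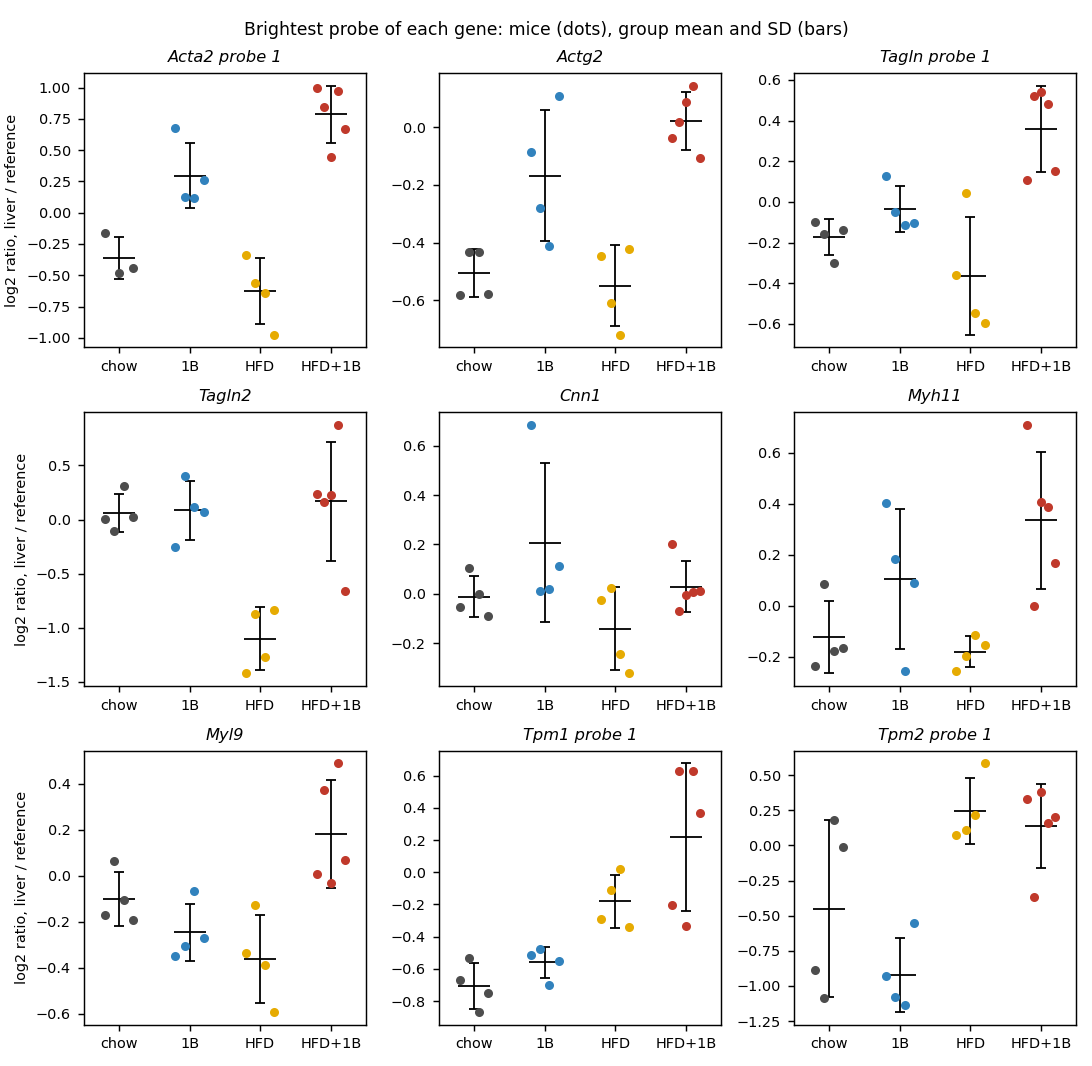
Log2 ratio of liver to reference (vertical axes, scaled per gene) in each mouse (dots) for the brightest probe of the 9 member genes, with the group mean and SD as bars. The HFD+1B mice lie above all HFD mice for Acta2, Actg2, Tagln, Tagln2, Myh11, and Myl9, and the Tpm2 values of the chow mice fall apart into a low and a high pair.

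Tpm1, a tropomyosin of muscle and many other cells, was higher with HFD+1B than in the chow group on its 2 bright probes. On Tpm1 probe 1 the log2 ratio was -0.67, -0.53, -0.87, and -0.75 in the chow mice, -0.51, -0.48, -0.70, and -0.55 in the 1B mice, -0.29, -0.11, 0.02, and -0.34 in the HFD mice, and -0.20, 0.63, -0.33, 0.63, and 0.37 in the HFD+1B mice. All mice on HFD were above all mice on chow diet, with and without ethanol. HFD+1B was 0.92 ± 0.17 above chow (limma, adjusted p = 0.00111) and 0.78 ± 0.17 above 1B (adjusted p = 0.00715), and HFD minus chow, at 0.53 ± 0.18, was not called (adjusted p = 0.0733). HFD+1B minus HFD was 0.40 ± 0.17 (adjusted p = 0.118).

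On Tpm1 probe 2 the log2 ratio was -1.05, -0.72, -1.03, and -1.04 in the chow mice, -0.82, -0.39, -0.90, and -0.58 in the 1B mice, -0.52, -0.03, 0.65, and -0.03 in the HFD mice, and -0.62, 0.39, -0.34, 0.47, and 0.43 in the HFD+1B mice. HFD and HFD+1B lay above chow without overlap, by 0.98 ± 0.24 (limma, adjusted p = 0.0172) and 1.03 ± 0.23 (adjusted p = 0.00504). The first call was lost without HFD mouse 3 (0.77, adjusted p = 0.0664). Probes 1 and 2 had a correlation of 0.89 over the 17 mice, and of 0.82 with group means removed. The difference between these probes passed the limma threshold in 0 of the 6 comparisons, and 3 were at an unadjusted p under 0.05.

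Tpm1 probe 3, which is listed for another transcript of the gene than probes 1 and 2, had a different course in these data. Its log2 ratio was 0.20, -0.36, -0.52, and -0.48 in the chow mice, -0.41, -0.44, -0.41, and -0.18 in the 1B mice, -0.38, -0.28, -0.40, and -0.63 in the HFD mice, and 0.01, -0.04, -0.21, 0.46, and -0.19 in the HFD+1B mice. The HFD+1B mice were above the HFD mice, by 0.43 ± 0.15, which was not called (limma, adjusted p = 0.0532), and the HFD mice lay within the chow range apart from HFD mouse 4. From chow to HFD, probe 3 fell behind probe 1 by -0.66 ± 0.19 (adjusted p = 0.0332), and from chow to HFD+1B by -0.63 ± 0.18 (adjusted p = 0.0473), where 5.62% of all 11307 probes were called. The first call was lost without any 1 of chow mice 1, 3, and 4 or HFD mice 3 and 4, and the second without any 1 of 14 mice and with the replicate block, and both with median centering and the authors' ratios. Chow mouse 1 was the highest chow mouse, and without it probe 3 was called higher in HFD+1B than in chow (0.46, adjusted p = 0.0308, against 0.30 and 0.217 with it). Its mean Cy5 intensity was 110 units, next to 998 for probe 1 and 461 for probe 2.

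Both Tpm2 probes separated the mice on HFD from the 1B mice and split the chow group. On Tpm2 probe 1 the log2 ratio was -0.89, -1.08, 0.18, and -0.01 in the chow mice, -0.93, -1.08, -1.13, and -0.55 in the 1B mice, 0.07, 0.11, 0.22, and 0.58 in the HFD mice, and 0.33, -0.37, 0.38, 0.16, and 0.20 in the HFD+1B mice. On Tpm2 probe 2 it was -0.73, -0.58, 0.23, and 0.27 in the chow mice, -0.44, -0.39, -0.79, and -0.34 in the 1B mice, 0.74, 0.60, 0.36, and 0.86 in the HFD mice, and 0.43, -0.06, 0.58, 0.19, and 0.35 in the HFD+1B mice. Chow mice 1 and 2 read like the 1B mice on both probes and chow mice 3 and 4 came near the HFD mice. The chow SD was 0.63 on probe 1 and 0.53 on probe 2, against 0.20 to 0.30 in the other groups of both probes.

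HFD+1B was above 1B by 1.06 ± 0.23 on Tpm2 probe 1 (limma, adjusted p = 0.00599) and by 0.79 ± 0.19 on probe 2 (adjusted p = 0.0142). HFD was above chow by 0.84 ± 0.20 on probe 2 (adjusted p = 0.0148), a call lost without chow mouse 1 (0.67, adjusted p = 0.0539), and by 0.69 ± 0.24 on probe 1, which was not called (adjusted p = 0.0763). Without chow mouse 3, HFD minus chow on probe 1 was called (0.90, adjusted p = 0.0267). The call of HFD+1B over 1B on probe 2 was lost without 1B mouse 3 (0.69, adjusted p = 0.0593). The 2 probes had a correlation of 0.94 over the 17 mice and of 0.88 with group means removed, and their difference was called in 0 of the 6 comparisons by limma (1 at an unadjusted p under 0.05). The alignment of Tpm1 probe 1 with Tpm2 probe 1 shown above matched at 27 of 33 bases. Chow mice 3 and 4 were the lowest mice on Tpm1 probe 1 and the highest chow mice on Tpm2 probe 1. The part of cross-hybridization between these probes was not tested.

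**Figure D5:**
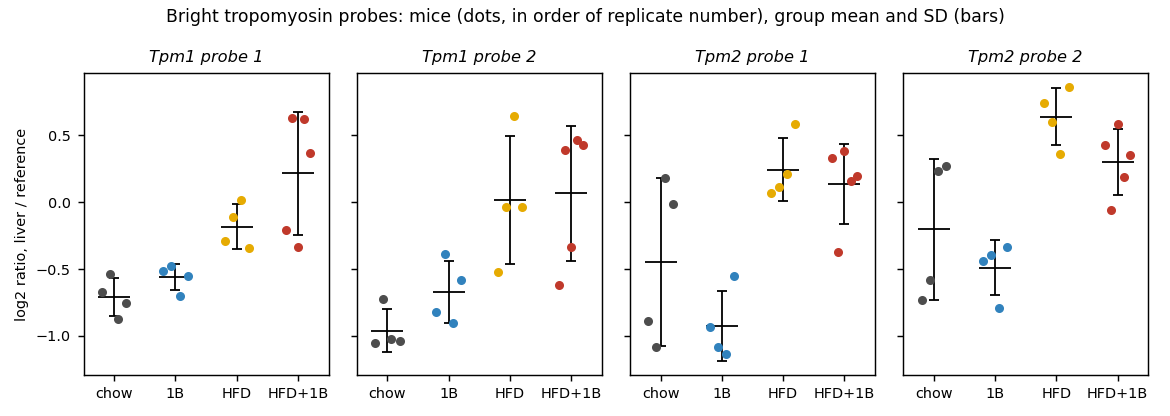
Log2 ratio of liver to reference (shared vertical axis) in each mouse (dots, ordered by replicate number within the group) for the 2 bright Tpm1 probes and both Tpm2 probes, with the group mean and SD as bars. On both Tpm2 probes chow mice 1 and 2 lie near the 1B mice and chow mice 3 and 4 near the HFD mice, while on Tpm1 probes 1 and 2 all chow mice lie below the HFD mice.

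Other genes of the contractile program are given by their counts. Here and elsewhere, the named genes and lists outside the members were read as ratios only, and their liver channel alone was not examined. Of 25 other smooth muscle contractile and mural genes, 4 were called higher and 0 lower in HFD+1B against chow (limma, median difference 0.08, next to 7.79% of all tested probes called higher, 6.98% lower, and a median of -0.00), including Cald1 (caldesmon, 0.69), Des (desmin, 0.58), and Csrp1 (0.52). Against HFD, 6 were higher and 1 lower (9.92% and 8.01% of all tested probes), and Cald1 rose by 1.33 ± 0.14 (adjusted p = 2.95e-05) and was lower with HFD on chow by -0.64 ± 0.15 (adjusted p = 0.0127). Mylk, the kinase that phosphorylates the regulatory myosin light chain, differed by -0.04 ± 0.15 from chow (adjusted p = 0.901).

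Of 14 tested non-muscle and striated relatives of the members, 9 were called higher and 0 lower in HFD+1B against chow (limma, median 0.57, next to the same 7.79% of all tested probes higher), with Actg1 at 2.37, Tpm4 at 1.43, Myl12b (a regulatory light chain of non-muscle myosin) at 1.12, and Myh9 (the heavy chain of non-muscle myosin) at 1.09. With HFD on chow 6 were higher (next to 3.88% of all tested probes), and with 1B on chow 1 was higher and 1 lower (next to 1.84% and 1.78%). For Myh9 the ethanol effect was larger on HFD than on chow by 0.91 ± 0.15 (adjusted p = 0.00603).

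Of 19 tested regulators of contraction and of SRF target genes, 7 were called higher and 1 lower in HFD+1B against chow (limma, median 0.25, next to 7.79% of all tested probes higher and 6.98% lower). These were led by Klf4, a factor that represses smooth muscle genes (1.48), Rhob, a small GTPase of the actin cytoskeleton (1.19), Gna12, a G protein subunit (-0.89), and the endothelin receptor Ednrb (0.86). Srf was 0.37 ± 0.09 above its HFD level in the HFD+1B mice (adjusted p = 0.00741) and 0.23 ± 0.09 from chow, which was not called (adjusted p = 0.0888). Myocd, the cofactor of SRF in smooth muscle, differed by 0.05 ± 0.17 from chow (adjusted p = 0.893). Of 12 tested adhesion and actin cross-linking genes known as SRF targets, 5 were called higher and 0 lower against chow (median 0.24), including Flna (filamin, 1.02), Pxn (paxillin, 0.91), Actn4 (0.58), and Zyx (zyxin, 0.53).

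The CArG box of SRF was searched for in the 250 bases before the start site in RefSeq promoters (GRCm38.p6), where 6 of the 9 genes were matched by symbol. Actg2, Tagln, and Myh11 had no window. The pattern was CC, then 6 bases of A or T, then GG. Boxes that depart from this strict pattern were not searched for, so a window without a match may still hold one. The box is its own reverse complement as a pattern, so 1 search covers both strands. The strict pattern was found in Myl9 and not in the windows of Acta2, Tagln2, Cnn1, Tpm1, and Tpm2, next to 482 of 32851 windows of all genes (1.47%). The Myl9 stretch is shown because it held the match, with the box in capitals, and the first base of the box lies 161 bases before the start site.
Myl9 promoter (chr2:156775288-156775327, plus strand): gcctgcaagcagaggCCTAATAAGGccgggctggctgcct

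Some markers of cell types that carry contractile genes were also higher in HFD+1B than in chow. Of 10 tested markers of activated stellate cells and fibroblasts, 8 were called higher and 0 lower in HFD+1B against chow (limma, median 1.03, next to 7.79% of all tested probes higher), led by Col1a1 (2.19), Spp1 (1.84), Col1a2 (1.37), and Loxl2 (1.20), and Lox was not well above background on any array. The mean of this list relative to chow was -0.12 to 0.21 in the chow mice, -0.18 to 0.18 in the 1B mice, 0.71 to 0.97 in the HFD mice, and 0.44 to 1.38 in the HFD+1B mice. With HFD on chow 5 of this list were called higher (median 0.63, next to 3.88% of all tested probes higher). With HFD+1B over HFD 2 were (median 0.15, next to 9.92%). The medians of the 16 member probes in these comparisons were -0.05 and 0.41. Acta2 probe 1 had its lowest group mean in the HFD mice, and its difference from chow was not called (-0.27 ± 0.17, limma, adjusted p = 0.349). Of 8 markers of vascular smooth muscle and pericytes, 4 were higher (Kcnj8 0.86, Rgs5 0.69, Des 0.58, and Mcam 0.49), with a list mean of 0.07 to 0.27 in the 1B mice, 0.11 to 0.24 in the HFD mice, and 0.17 to 0.59 in the HFD+1B mice. Their part in the rise of the members was not tested.

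Markers of other cells were checked in HFD+1B against chow, where 14.8% of all tested probes were called. Of 9 tested skeletal muscle markers, 0 were called by limma (2 higher and 2 lower at an unadjusted p under 0.05), with a list mean of -0.12 to 0.17 in the HFD+1B mice, and Myl1 was not well above background on any array. Against chow, HFD+1B raised 2 of 10 quiescent stellate cell markers (Lrat and Des), 2 of 7 endothelial markers with 1 lower, 3 of 8 neutrophil markers, 1 of 5 platelet markers (Pf4), 1 of 6 macrophage markers (Cd68), 1 of 5 hepatocyte markers (Tat), and 1 of 4 mesothelial markers (Msln). Of 6 lymphocyte and 5 cholangiocyte markers 0 were called by limma, with 2 and 1 higher at an unadjusted p under 0.05.

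The genes most like Acta2, Tagln, and Tpm2 over the arrays belonged to none of these lists. Among 15362 genes well above background on all arrays without a missing value, those with the highest Pearson correlation with Acta2 probe 1 over 16 arrays were Slc20a1 (0.96), Olfr175-ps1 (0.93), Gm5662 (0.92), Zfp629 (0.92), and Ccne1 (0.92). For Tagln probe 1 over 17 arrays they were Ccl17 (0.91), Cltc (0.90), Sbpl (0.90), Eppk1 (0.88), and 1700056E22Rik (0.88). For Tpm2 probe 1, which was added after its values were seen, they were Cfd (0.92), an adipocyte serine protease, Tmem55b (0.92), and the PPAR-alpha targets Cyp4a14, Acaa1a, and Acaa1b (0.91 each). With group means removed, the correlations ran from 0.45 to 0.73 for the genes listed for Acta2 and from 0.55 to 0.75 for those of Tagln. For those of Tpm2 they ran from 0.76 (Tmem55b) to 0.95 (Cfd). All are a description over mice of 4 groups.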

How the data were processed

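RNA from the livers of 17 mice was hybridized to 2-color Agilent arrays, 1 array per mouse. The authors scanned the arrays and extracted spots with Feature Extraction 11.5.1.1, and they deposited median spot and background signals as raw intensity in both channels, together with a table of dye-normalized log2 ratios, which was used for probe names, probe sequences, and as an alternative (0 of its value columns were left without a mouse). From the intensities, signals were corrected by normexp with an offset of 50 and normalized by loess within arrays, with control spots and spots marked as outliers at weight 0. Outlier spots were then left out and replicate spots averaged. A probe entered the tests if the scanner software had marked Cy5 as well above background on 4 or more arrays and each group held a value. Group means were fitted with limma 3.58.1 in R 4.3.3 (13 residual degrees of freedom), and p-values were adjusted by Benjamini-Hochberg over all 34664 tested probes. Probe agreement was tested with the same fit on the difference of a probe from the brightest probe of its gene on the same array. Single channels were taken after loess and Aquantile between arrays.

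The offset of 50 compresses the ratios of dim probes, so differences of probes near background understate the change, and the number of arrays limits the precision. For the arrays the paper gives a threshold of a 2 fold change and names no test. Its general test for several groups, a one-way analysis of variance with a post hoc comparison, was run as an alternative. The p-values of that alternative were not adjusted over probes. Other alternatives were another offset, no background subtraction, median centering, Cy5 alone, the authors' ratios, looser and stricter filters, outlier spots kept, slide or replicate number as a block, a fold rule, and each mouse left out. Every probe of the 9 members was named, up to 4 genes per list with the largest called difference between HFD+1B and chow, the genes Des, Srf, Myocd, Mylk, Actb, and Actg1, and the 5 genes most correlated with Acta2 and with Tagln. The members and lists were chosen with earlier results of these data known. The fits were tested on simulated data. Probe positions in the genome were not analysed here. A few items withheld for evaluation are not reported here.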

Additional observations from a re-analysis of the deposited data

Results flagged for a closer look

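In 4 of 63 groups of 4 or 5 mice, 1 mouse lay far from the rest by Dixon's criterion (the gap to the nearest other mouse over the range of the group), and 3.15 would be expected by chance. On Tagln probe 2, HFD+1B mouse 5 was the highest (gap over range 0.720). On Cnn1, 1B mouse 1 was the highest (0.853). On Tpm1 probe 2, chow mouse 2 was the highest (0.913), and on Tpm1 probe 3, 1B mouse 4 was the highest (0.885).

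The effect of ethanol differed between HFD and chow by the interaction term of limma for 2 members. It was 1.24 for Tagln2 (adjusted p = 0.037), with -0.31 ± 0.63 in Cy5 and -1.56 ± 0.47 in Cy3, neither of them called (adjusted p = 0.888 and 0.94), and 0.69 for Myl9 (adjusted p = 0.0341).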

How the results depend on the processing

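Among the values of single probes under the alternatives, 2519 kept their direction and their side of the threshold, 91 lost a call, 55 gained one, and 1 reversed, the interaction of Tagln2, which was -0.31 in Cy5 alone (adjusted p = 0.888). In Cy5 alone the number of member probes called was 0 for 1B against chow, 0 for HFD against chow, 2 for HFD+1B against chow, 2 against HFD, 1 against 1B, and 0 for the interaction, next to 0.883%, 3.52%, 5.89%, 5.13%, 2.79%, and 0.6% of all tested probes, and at an unadjusted p under 0.05 the same numbers were 1, 3, 7, 4, 6, and 2. A single channel had the larger error, with a median standard error of 0.17 against 0.12 for the ratio in HFD+1B minus HFD. At a fold of 2 with an unadjusted p of 0.05, the counts were 0, 1, 3, 2, 1, and 1 in the same order. The 1 probe of 1B against chow became 0 with median centering, the authors' ratios, slide as a block, and the replicate block. It became 2 with the post hoc comparison, which was not adjusted over probes. The 2 probes of the interaction became 5 with median centering, 1 without a filter, and 4 with the replicate block. The 10 probe differences became 1 in Cy5 alone, 16 without a filter, and 6 with a signal above background on all 17 arrays. The cause was not tested.

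With each mouse left out in turn, the counts ran from 0 to 2 for 1B against chow, 3 to 5 for HFD against chow, 6 to 8 for HFD+1B against chow, 6 to 9 against HFD, 4 to 7 against 1B, 0 to 4 for the interaction, and 7 to 12 for the probe differences. The labels tie replicate numbers to no batch, although all 4 mice numbered 1 lay on slide 1 and 3 of the 4 numbered 2 lay on slide 2. The correlations of deviations from the group means ran from -0.126 to 0.479 for pairs of one number (median 0.179, against -0.048 for other pairs), and 9 of 16 such mice correlated best with a mouse of their own number, as a hint from the data. Pairs of one slide had a median of 0.1955, against -0.0429 for other pairs, so number and slide cannot be told apart here. The replicate block left the other counts of member probes within 1.5 times, with 5 for HFD against chow and 7 for each of the 3 comparisons of HFD+1B.

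Over all tested probes, the calls went from 1256, 3457, 5123, 6218, 3471, and 1424 (1B and HFD against chow, HFD+1B against chow, HFD, and 1B, and the interaction) to 306, 1220, 2043, 1779, 966, and 208 in Cy5 alone and to 296, 555, 853, 608, 526, and 704 with the fold rule. For 1B against chow they were 788 with median centering, 828 with the authors' ratios, and 2290 with the post hoc comparison, which was not adjusted over probes. For the interaction they were 2913 with the replicate block.

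No scaling moved the median of all probes by over 0.1. Median centering moved the share of higher among all called probes from 38.9% to 14.3% for HFD against chow, 52.7% to 65.7% for HFD+1B against chow, 55.3% to 86.5% against HFD, 53.0% to 73.0% against 1B, and 61.0% to 91.1% for the interaction. In Cy5 alone it was 20.4%, 74.1%, and 84.6% for HFD against chow, HFD+1B against HFD, and the interaction.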
